A study of Mus musculus with 12 samples.

Results

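The effect of adding loss of MDA5 to loss of SAMHD1 was read in mouse peritoneal macrophages, the resident and recruited phagocytes of the abdominal cavity, by RNA sequencing. The comparison set 3 libraries without both proteins (SAMHD1 MDA5 DKO) against 3 libraries without SAMHD1 alone (SAMHD1 KO). By their labels, both genotypes lacked SAMHD1 and differed in MDA5. These 6 libraries were all those of the 12 in the series that carry the SAMHD1 deletion. The other 6, 3 of wild type (WT) and 3 of MDA5 KO, are used here only to place the levels. All macrophages were untreated and taken at day 0. Strain, age, sex, the way the alleles were made, and whether a library came from 1 animal or from a pool are not given in the sources used here, so the p-values below measure only the spread between these libraries. The comparison covered the 27827 genes of the deposited table of the 2 genotypes, of 33641 in all tables of the series, and 14150 of them passed a floor on the deposited mean of 10 scaled reads and were tested.

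SAMHD1 is a phosphohydrolase that degrades deoxynucleoside triphosphates and acts at stalled replication forks, and its loss is known to start a spontaneous interferon response. MDA5, encoded by Ifih1, is a cytosolic helicase that binds long double-stranded RNA and signals through the adaptor MAVS to the kinases and factors that switch on type I interferon. Secreted interferon then acts through its receptor, the Janus kinases and their transcription factors on a broad set of interferon-stimulated genes (ISGs). The cGAS and STING pathway, which senses DNA, feeds into the same kinases. The comparison asks which genes that are high without SAMHD1 depend on MDA5.

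Levels are given as normalised reads, meaning whole reads recovered from the deposited tables and divided by a size factor per library. Differences are given on the deposited log2 scale as the mean of the 3 DKO libraries minus the mean of the 3 SAMHD1 KO libraries, so a negative value is lower without MDA5. That scale is variance-stabilised and has a floor, so it shows a smaller difference than the reads do for genes of low level. The 6 libraries held 35827769 to 58345425 recovered reads.

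The SAMHD1 KO libraries were not alike, which bears on every result below. SAMHD1 KO 2 and 3 were the closest pair of the whole series, with a robust SD of their log2 ratio of 0.0995 over 7976 genes with a mean of at least 500 normalised reads. The other 65 pairs lay between 0.152 and 1.42. The median chi-square of SAMHD1 KO 2 and 3 per gene was 2.09. Counting error alone gives 0.455, and the other pairs within a genotype gave 11.3 to 213. SAMHD1 KO 2 and 3 thus differed beyond counting noise and were kept as separate libraries. This does not show that they are independent, since libraries of the same animal or culture could also differ beyond counting noise. Their independence is not known, and the p-values of the main fit assume it. SAMHD1 KO 1 lay nearer to the 3 DKO libraries, at 0.213 to 0.280, than to SAMHD1 KO 2 and 3, at 0.490 and 0.502. Results that rest on one side of this split are therefore given against SAMHD1 KO 1 and against the mean of SAMHD1 KO 2 and 3, on the scale of log2(normalised reads + 1). The deposited log2 columns of SAMHD1 KO 2 and DKO 3 also carry an adjustment that makes their mean per gene equal to that of the other 4 libraries, and the fit has a term for it. WT 3 also stood apart, at 1.06 or more from every other library, and values against WT are given for WT 1 and 2 where it matters. Leaving out WT 3 in this way was a choice made after seeing the data.

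**Figure D1:**
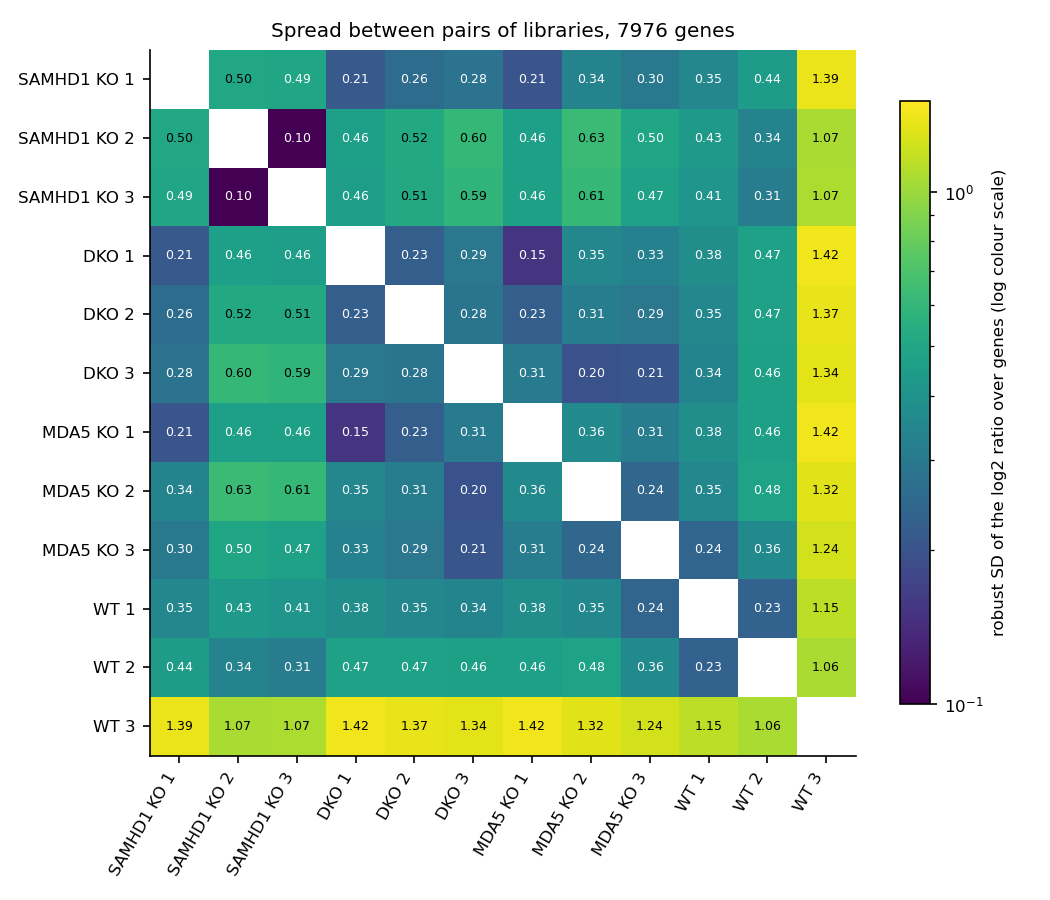
Robust SD of the log2 ratio between each pair of the 12 libraries over 7976 genes, in a log colour scale with the value in each cell; DKO stands for SAMHD1 MDA5 DKO. The darkest cell is SAMHD1 KO 2 with SAMHD1 KO 3 at 0.10, the row of SAMHD1 KO 1 is closer to the DKO libraries than to the other SAMHD1 KO libraries, and WT 3 is far from all.

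The targeted genes followed the labels. Ifih1 (chr2:62595798-62646255, minus strand of the files' build, GRCm38) had 3745, 3163 and 3172 normalised reads in the SAMHD1 KO libraries and 4.18, 0.88 and 41.9 in the DKO libraries. Each DKO library was far below each SAMHD1 KO library, and the difference of -6.12 (SE 0.29, adjusted p = 4.1e-04) had the smallest p of the comparison. The authors' deposited table gives Ifih1 a log2 fold change of -1.17 with an adjusted p of 0.0173, a much smaller size than its own library columns show. Samhd1 (chr2:157097533-157135265) had 3689, 3253 and 2954 in the SAMHD1 KO libraries and 4960.3, 3331 and 1747 in the DKO libraries, against 17124, 15524 and 7067 in WT. Both deleted genotypes kept reads of Samhd1 at overlapping levels below WT 1 and 2, with a difference of -0.10 (SE 0.27, adjusted p = 0.857).

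Across all genes, limma with Benjamini-Hochberg adjustment over the 14150 genes called 2 genes, or 0.0141%, both lower without MDA5. They were Ifih1 and Hba-a2, a haemoglobin chain. At an unadjusted p under 0.05 there were 1343 lower genes, or 9.49%, and 803 higher genes, or 5.67%, together 15.2% of those tested. On the deposited log2 scale the 3 DKO libraries lay wholly below the 3 SAMHD1 KO libraries for 13.5% of genes and wholly above for 11.3%. Non-overlap in the shares, the lists and the choice of named genes was read on that scale, which holds the adjustment described above. Normalised reads can overlap where the adjusted values do not. The median difference over all genes was 0.012, and 51.4% of genes were higher. The authors' deposited table of this comparison calls 412 genes lower and 98 higher at an adjusted p under 0.05, which is 2.91% and 0.693% of the genes tested here. With SAMHD1 KO 1 left out, limma called 2183 lower genes, or 15.4%, and 2014 higher genes, or 14.2%. Averaging SAMHD1 KO 2 and 3 into 1 library with SAMHD1 KO 1 kept, a choice made after seeing the data, left 0 genes called and 819 at an unadjusted p under 0.05. Apart from Ifih1 and Hba-a2, every gene named below is therefore described by its values and did not pass the threshold over all genes.

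Type I interferon-stimulated genes were mostly lower when MDA5 was missing too. Of the 109 genes of this list, 104 were tested, and 77 of them were lower in the DKO libraries, against 48.6% of all genes. Their median difference was -0.25, beside 0.012 for all genes. In 29 members the groups did not overlap with DKO lower, against 13.5% of all genes. In 3, named after their values were seen as Parp10, Slfn3 and Setdb2, they did not overlap with DKO higher, against 11.3%. No member passed the test, and 29 had an unadjusted p under 0.05 in the lower direction, against 9.49% of all genes. The mean of log2(normalised reads + 1) over the list was 10.84, 10.71 and 10.73 in SAMHD1 KO 1 to 3 and 10.64, 10.63 and 10.01 in DKO 1 to 3. It was 10.36, 10.21 and 9.14 in WT 1 to 3 and 9.86, 9.58 and 9.996 in MDA5 KO 1 to 3. The DKO libraries thus lay below all SAMHD1 KO libraries and, for DKO 1 and 2, above all WT and MDA5 KO libraries. DKO 3 was the lowest of the 3 DKO libraries for 87 of the 104 members, against 36% of all genes. Outside the adjusted set, where neither DKO 3 nor SAMHD1 KO 2 enters, the median difference was -0.15. The direction of the list did not depend on the split among the SAMHD1 KO libraries, since 88 members were lower against SAMHD1 KO 1 (50.3% of all genes) and 68 against SAMHD1 KO 2 and 3 (48.6%), 59 against both (28%), where the medians were -0.36 and -0.19.

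Among the members, the largest difference was that of Ifi205, which like Ifi208 belongs to the p200 family of relatives of the DNA-binding protein IFI16. Ifi205 had 1177, 1308 and 1524 normalised reads in the SAMHD1 KO libraries and 637, 557 and 143 in the DKO libraries, a difference of -1.68 (SE 0.33, adjusted p = 0.315). WT 1 and 2 had 482 and 321, so DKO 1 and 2 stayed above WT while DKO 3 lay below both. Ifi208 had 139.7, 99.9 and 126 in the SAMHD1 KO libraries and 55, 39.7 and 6.83 in the DKO libraries, a difference of -1.23 (SE 0.23, adjusted p = 0.315). The ISG15 protease Usp18, which also damps signalling at the interferon receptor, had 991, 1209 and 1198 against 761, 536 and 212, a difference of -1.24 (SE 0.31, adjusted p = 0.315). The groups did not overlap for any of these genes. Irf7, the transcription factor that amplifies interferon production, had 6119.8, 3409 and 3514 against 3058, 2536 and 1593, a difference of -0.85 (SE 0.23, adjusted p = 0.315). Rsad2, which encodes the antiviral enzyme viperin, had 784, 434 and 490.3 against 379, 286 and 181, a difference of -0.91 (SE 0.22, adjusted p = 0.315). For both, SAMHD1 KO 1 was the highest library of the comparison and DKO 3 the lowest. Ifi205, Ifi208, Usp18, Irf7 and Rsad2 are also the 5 list members, of 104 tested, that the authors' deposited table calls lower. It calls 2.91% of all genes tested lower and 0.693% higher, so these counts are small beside those shares. Slfn3, a schlafen gene with a difference of 0.67 (SE 0.18), is the only member it calls higher.

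**Figure D2:**
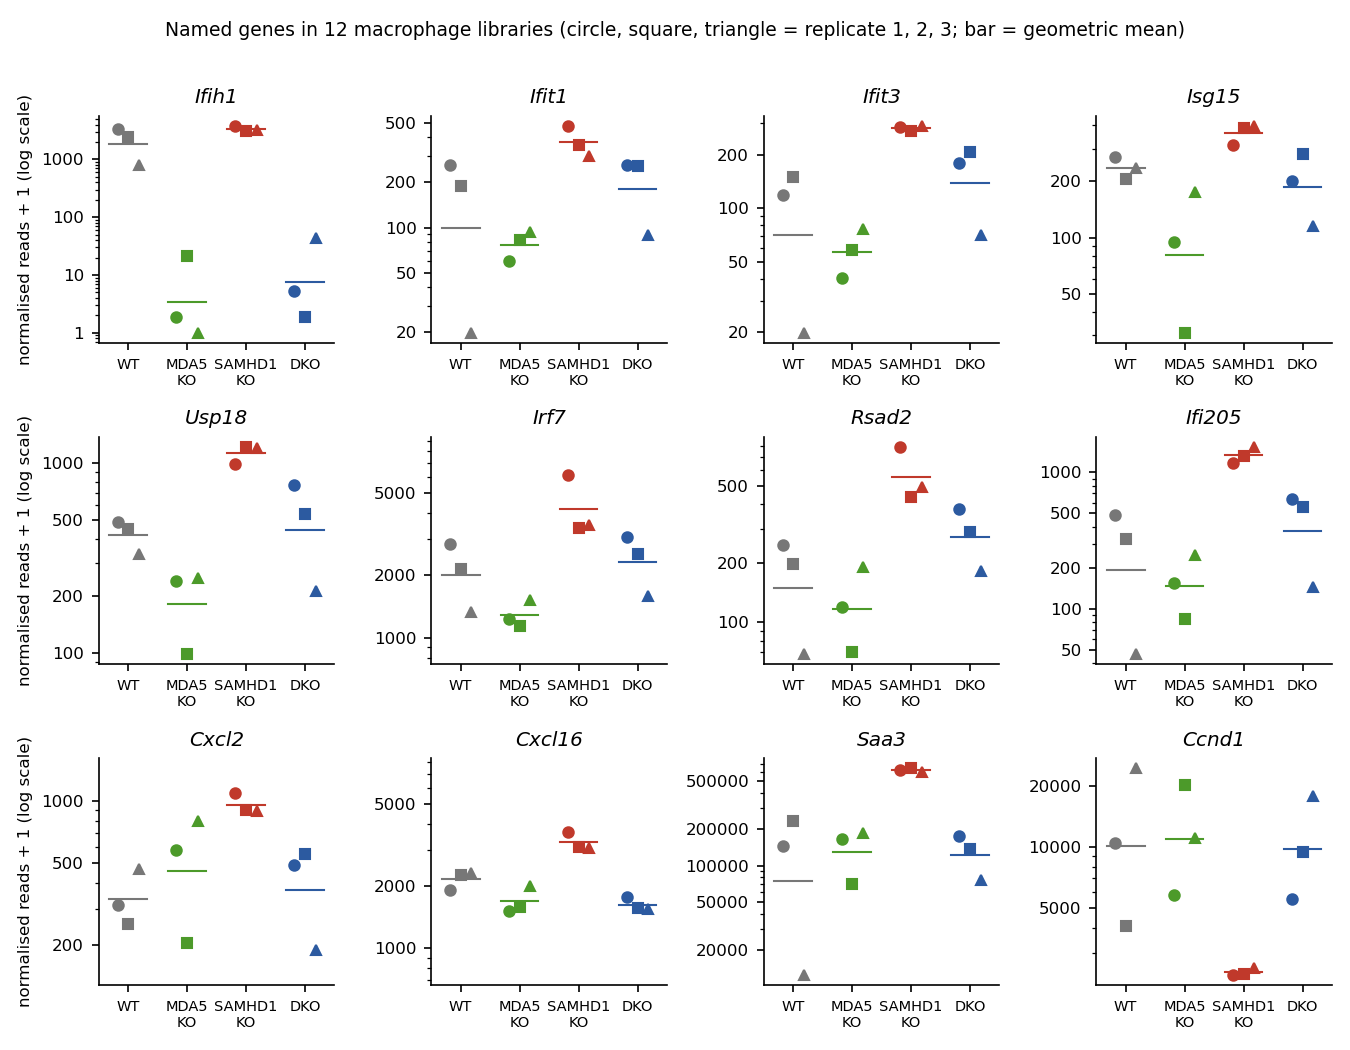
Normalised reads + 1 on log axes for 12 named genes in each of the 12 libraries; symbols are libraries by replicate number, bars are geometric means of the 3 libraries of a genotype, and DKO stands for SAMHD1 MDA5 DKO. For the interferon-stimulated genes, for Cxcl2, Cxcl16 and Saa3 the DKO libraries lie below the SAMHD1 KO libraries, and for Ccnd1 above them.

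The IFIT genes, whose proteins bind foreign 5′ ends of RNA, were read in 6 members. Ifit1 had 471, 355 and 297 normalised reads in the SAMHD1 KO libraries and 258, 257 and 88.8 in the DKO libraries, a difference of -0.84 (SE 0.28, adjusted p = 0.315). Ifit3 had 286, 269.7 and 287 against 179, 205 and 69.3, a difference of -0.81 (SE 0.24, adjusted p = 0.315). DKO 3 was far below DKO 1 and 2 for both genes, and these in turn lay below every SAMHD1 KO library. Ifit2 differed by -0.31 (SE 0.18) and Ifit3b by -0.15 (SE 0.20). Ifit1bl2 had 14.1, 24.1 and 20.8 against 20.2, 22.9 and 19.5, with a difference of 0.037 (SE 0.18) and overlapping groups. Ifit1bl1 ranged from 0 to 39.1 normalised reads over the 6 libraries and differed by -0.57 (SE 0.29). Isg15, the ubiquitin-like modifier, had 313, 385 and 394 against 201, 278 and 115, a difference of -0.80 (SE 0.25, adjusted p = 0.315). Isg20, an exonuclease, had 488, 459 and 555 against 398, 379.8 and 336, a difference of -0.39 (SE 0.16, adjusted p = 0.326). Oas1a, a sensor that makes the activator of RNase L, had 4103, 4175 and 4264 against 3367, 3600.2 and 2329, a difference of -0.46 (SE 0.17, adjusted p = 0.325). The groups overlapped for Oas1b, of the same family, with 195, 231 and 176 against 374, 256 and 80.0 and a 95% interval of -0.78 to 0.83 around a difference of 0.026. Ifit, p200 and Oas genes are close copies of each other, and the authors' counting could have moved reads between them.

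The promoters of some of these genes are shown because the list shares a sequence feature that the comparison did not use. The searched core of the interferon-stimulated response element was GAAA, any 2 bases and GAAA again on either strand, and overlapping matches were counted. RefSeq promoters (GRCm38.p6, from 250 bases before to 50 after the start site) were matched by symbol for 9292 of the genes tested, and 308 of these, or 3.31%, held the core, close to the 3.44% of all 32851 promoters of the table. In the type I interferon list 37 of 84 matched promoters, or 44.0%, held it. In capitals below are the matches to this core and, for Cxcl2, to an NF-kB motif of GGG, any 2 bases and TTTCC on either strand, held by 1.63% of all promoters, each 5′ to 3′ on the gene's strand.
Isg15, chr4:156200769-156201068, minus strand: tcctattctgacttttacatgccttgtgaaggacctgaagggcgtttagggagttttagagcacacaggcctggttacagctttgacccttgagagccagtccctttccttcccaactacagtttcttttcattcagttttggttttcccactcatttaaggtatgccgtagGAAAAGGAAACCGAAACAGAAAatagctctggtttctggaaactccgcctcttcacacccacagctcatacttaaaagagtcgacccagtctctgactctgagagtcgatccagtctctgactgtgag
Ifit3, chr19:34583279-34583578, plus strand: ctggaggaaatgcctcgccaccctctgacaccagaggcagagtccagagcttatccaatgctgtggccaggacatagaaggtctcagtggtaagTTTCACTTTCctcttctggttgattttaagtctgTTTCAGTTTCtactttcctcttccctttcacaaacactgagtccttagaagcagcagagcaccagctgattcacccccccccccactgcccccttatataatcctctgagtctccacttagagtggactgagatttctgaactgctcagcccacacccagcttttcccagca
Rsad2, chr12:26456403-26456702, minus strand: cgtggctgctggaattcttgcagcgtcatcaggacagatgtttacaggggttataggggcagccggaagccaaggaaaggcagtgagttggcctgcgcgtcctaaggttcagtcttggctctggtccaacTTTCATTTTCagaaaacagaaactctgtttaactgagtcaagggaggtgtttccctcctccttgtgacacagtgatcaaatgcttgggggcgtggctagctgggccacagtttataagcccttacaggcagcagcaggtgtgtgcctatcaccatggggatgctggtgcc
Saa3, chr7:46715627-46715926, minus strand: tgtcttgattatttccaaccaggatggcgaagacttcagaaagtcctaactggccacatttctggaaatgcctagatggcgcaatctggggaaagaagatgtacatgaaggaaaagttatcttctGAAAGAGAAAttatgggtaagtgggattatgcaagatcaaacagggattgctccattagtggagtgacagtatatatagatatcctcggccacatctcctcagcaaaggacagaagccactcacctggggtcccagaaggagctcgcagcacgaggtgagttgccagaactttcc
Cxcl2, chr5:90903649-90903948, plus strand: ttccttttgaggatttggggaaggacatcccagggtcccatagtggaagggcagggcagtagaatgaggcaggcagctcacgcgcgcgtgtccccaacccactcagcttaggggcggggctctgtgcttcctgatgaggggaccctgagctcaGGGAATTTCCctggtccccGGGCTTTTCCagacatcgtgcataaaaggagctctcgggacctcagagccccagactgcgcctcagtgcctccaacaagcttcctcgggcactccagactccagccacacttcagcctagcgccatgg
The capitals of Isg15 are 3 matches that overlap, and those of Ifit3 are 2 separate matches on the opposite strand. The 308 genes with the core had a median difference of -0.078, and 59.7% of them were lower, against 0.047 and 44.2% for the 8984 genes without it. The medians were -0.048 and 0.01 against SAMHD1 KO 1, and -0.12 and 0.079 against SAMHD1 KO 2 and 3. Within the type I interferon list 30 of 37 genes with the core were lower (median -0.29), and so were 32 of 47 without it (median -0.19). The medians of these members were -0.39 and -0.36 against SAMHD1 KO 1, and -0.28 and -0.086 against SAMHD1 KO 2 and 3. Outside the type I interferon list, 154 of 271 genes with the core were lower, or 56.8%, against 44.1% of those without it. Medians there were -0.018 and 0.011 against SAMHD1 KO 1 and -0.097 and 0.08 against SAMHD1 KO 2 and 3. Those 271 genes still include targets of interferon gamma and IRF1, a list in which 12 of 21 matched promoters held the core. The 163 genes with the NF-kB motif had a median difference of 0.0065, with 49.1% lower, against 0.0445 and 44.7% for the 9129 genes without it. Their medians were -0.05 and 0.01 against SAMHD1 KO 1, and 0.08 and 0.073 against SAMHD1 KO 2 and 3. A match is only a run of letters, and binding was not measured.

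The genes of the sensing and signalling steps themselves had no common direction over both sides of the SAMHD1 KO split. In the RIG-I-like receptor list 8 of 17 members were lower, Ifih1 included, with a median of 0.055. Against SAMHD1 KO 1 13 of 17 were lower (median -0.17), and against SAMHD1 KO 2 and 3 5 of 17 (median 0.094). Trim25, a ubiquitin ligase of the RIG-I pathway, had 10418, 10952 and 11269 normalised reads against 9660.2, 7101 and 5298, a difference of -0.61 (SE 0.21). Prkra, a double-stranded RNA binding protein, differed by -0.80 (SE 0.27), and against SAMHD1 KO 1 alone by -0.092 on the read scale. Mavs, the adaptor that MDA5 signals through, had 1432, 1088 and 1126 against 1530.4, 1593 and 1527, a difference of 0.34 (SE 0.16), with all DKO libraries higher. Of genes chosen after their values were seen, Ddx58, which encodes RIG-I, differed by 0.057 (SE 0.20), with a 95% interval of -0.40 to 0.51. The antiviral GTPase Mx1, chosen in the same way, had 631, 611 and 614 against 908, 650.4 and 339, a difference of -0.072 (SE 0.24). The groups overlapped for both of these genes.

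The cGAS and STING list had a median of -0.054 over 17 members, -0.20 against SAMHD1 KO 1 and -0.14 against SAMHD1 KO 2 and 3, and Ifi205 and Ifi209 were its members with the smallest p. Ifi209, another p200 gene, had 3990.3, 5360.2 and 5189 against 3478, 3749 and 2394, a difference of -0.61 (SE 0.21). The folate and cyclic dinucleotide carrier Slc19a1 differed by 0.50 (SE 0.25). In the receptor and Janus kinase list 6 of 15 members were lower, with a median of 0.063. This was 11 of 15 against SAMHD1 KO 1 (median -0.12) and 4 of 15 against SAMHD1 KO 2 and 3 (median 0.25). Its members with the smallest p were Tyk2 at 0.43 (SE 0.18), Irf9 at -0.36 (SE 0.17), Stat3 at 0.48 (SE 0.23) and the interferon gamma receptor chain Ifngr1 at -0.34 (SE 0.18). Among the interferon regulatory factors, Irf5 was higher by 0.51 (SE 0.19) and Irf8 by 0.38 (SE 0.21). Interferon ligands were close to absent. None of the 4 listed ligand genes in the table was tested, and each had under 2 normalised reads in every one of the 6 libraries.

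Targets shared with interferon gamma and IRF1 were mostly lower, as in the type I list. Of 29 tested members 26 were lower, with a median of -0.21, and 24 and 22 were lower against SAMHD1 KO 1 and against SAMHD1 KO 2 and 3. Gbp6, a guanylate-binding GTPase of host defence, had 588, 449 and 538 normalised reads against 359, 322 and 189, a difference of -0.79 (SE 0.18, adjusted p = 0.315). Iigp1, an immunity-related GTPase, had 1818, 1722 and 1668 against 1301, 1380.1 and 408, a difference of -0.90 (SE 0.30, adjusted p = 0.315). In both, DKO 3 was the lowest library of the 6 and no DKO library reached a SAMHD1 KO library. Ifi47, of the same GTPase family, differed by -0.56 (SE 0.20), and the adhesion molecule Icam1 by -0.62 (SE 0.22).

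The list of MHC class I and peptide loading genes had 18 of 22 members lower and a median of -0.21. DKO 3 was the lowest DKO library for 19 of these 22 members, against 36% of all genes. The median was -0.12 outside the adjusted set and -0.42 inside it. The mean of log2(normalised reads + 1) over the list was 11.70, 11.58 and 11.59 in SAMHD1 KO 1 to 3. In DKO 1 to 3 it was 11.59, 11.58 and 11.07, so DKO 1 and 2 were level with SAMHD1 KO 2 and 3. H2-T22, a class Ib molecule, had 4271, 5158 and 5337 against 3427, 3050.2 and 2664, a difference of -0.69 (SE 0.18, adjusted p = 0.315). H2-Q7 differed by -0.73 (SE 0.28) and H2-T24 by -0.47 (SE 0.17), and these genes are near-identical copies between which reads can be shared. Nlrc5, the transactivator of class I genes, lay in the other direction. It had 1674, 1112 and 1224 against 2336, 2431 and 1306, a difference of 0.54 (SE 0.18). MHC class II genes had a median of 0.0019 over 10 members. The median was 0.78 against SAMHD1 KO 1, with 8 of 10 higher, and against SAMHD1 KO 2 and 3 it was -0.19, with 7 of 10 lower. The members with the smallest p were H2-DMa at 0.24 (SE 0.15), Ciita at 0.39 (SE 0.28), Ctss at -0.28 (SE 0.22) and Cd74 at 0.40 (SE 0.39).

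Inflammatory genes outside the interferon lists were also mostly lower, among them the acute phase gene Saa3. Saa3 (chr7:46711998-46715700), whose promoter is shown above, had 617615, 640339 and 593823 normalised reads in the SAMHD1 KO libraries and 175310.4, 137794 and 75412 in the DKO libraries. WT 1 and 2 had 145337 and 233304 and the MDA5 KO libraries 165432, 69984 and 186788. The SAMHD1 KO libraries were high and close together, and the DKO libraries overlapped WT 1 and 2 and MDA5 KO. The difference was -2.34 (SE 0.30, adjusted p = 0.111), and it was -2.34 on the read scale both against SAMHD1 KO 1 and against SAMHD1 KO 2 and 3.

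In the NF-kB list 19 of 26 tested members were lower, with a median of -0.25. The median was -0.69 against SAMHD1 KO 1, with 19 lower, and -0.17 against SAMHD1 KO 2 and 3, with 17 lower. Cxcl2, a neutrophil chemoattractant with a pair of NF-kB motif matches in the promoter printed above, had 1088, 901 and 894 against 488, 549.9 and 189, a difference of -1.25 (SE 0.25, adjusted p = 0.315). Birc3, an inhibitor of apoptosis, had 5933, 5009 and 5251 against 4463, 3041 and 2559.6, a difference of -0.72 (SE 0.20, adjusted p = 0.315). Nfkbie, an inhibitor of NF-kB, had 1761, 1128 and 1312 against 1014, 1036 and 777, a difference of -0.54 (SE 0.16, adjusted p = 0.315). All 3 genes had each DKO library below each SAMHD1 KO library. Bcl3, a nuclear partner of NF-kB, lay higher by 1.33 (SE 0.44), with 715, 390.2 and 286 against 622, 1944 and 1335 and overlapping groups.

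Of the chemokines, 13 of 25 were tested and 11 of these were lower, with a median of -0.30. Against SAMHD1 KO 1 the median was 0.14 and against SAMHD1 KO 2 and 3 it was -0.64, so the list as a whole depends on the library it is read against. Cxcl16, a membrane-bound chemokine and scavenger of oxidised lipoprotein, did not. It had 3662, 3091 and 3065 normalised reads in the SAMHD1 KO libraries and 1766, 1568 and 1542 in the DKO libraries, tight within each group, and a difference of -0.99 (SE 0.15, adjusted p = 0.239). On the read scale it differed by -1.17 from SAMHD1 KO 1 and by -0.92 from SAMHD1 KO 2 and 3. Cxcl1 differed by -0.68 (SE 0.24). Ccl9 had 31127, 69410.2 and 63464 against 29160.2, 36317 and 25797, where SAMHD1 KO 1 sat among the DKO libraries. Cxcr4 and Cd55 were named among the largest lower differences with groups that do not overlap, and Fas for its p in the p53 list. The chemokine receptor Cxcr4 had 1493, 1390.0 and 1421 against 497, 148 and 76.1, a difference of -2.65 (SE 0.40, adjusted p = 0.208). Cd55, a regulator of complement, had 1109, 348 and 268 against 87.8, 72.3 and 49.7, a difference of -2.19 (SE 0.42, adjusted p = 0.315). The death receptor Fas had 1845, 2647 and 2448 against 1356, 1179 and 782, a difference of -1.06 (SE 0.23, adjusted p = 0.315).

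The medians of the inflammasome list were 0.06 against SAMHD1 KO 1 and -0.096 against SAMHD1 KO 2 and 3, and those of the Toll-like receptor list -0.11 and 0.16. Among 18 tested genes of the inflammasome list 11 were lower, led by Casp4, the sensor of cytosolic lipopolysaccharide, at -0.93 (SE 0.29), and Casp1 at -0.56 (SE 0.23). Against SAMHD1 KO 1 these were -0.33 and -0.10 on the read scale. Il18 differed by -0.46 (SE 0.23) and Gsdmd by 0.27 (SE 0.15). Of the Toll-like receptor list 9 of 17 were lower, with Tlr5 at 0.76 (SE 0.19), Tlr1 at 0.77 (SE 0.22), Tlr2 at -0.51 (SE 0.22) and the signalling inhibitor Irak3 at -0.71 (SE 0.24).

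Genes of DNA repair and of sterol synthesis were mostly higher without MDA5, and no member of either list passed the test. The repair and checkpoint list had 29 of 35 members higher, 27 of them against SAMHD1 KO 1 and against SAMHD1 KO 2 and 3 alike (29.1% of all genes), and a median of 0.32, with medians of 0.36 against SAMHD1 KO 1 and 0.40 against SAMHD1 KO 2 and 3. Topbp1, an activator of the ATR checkpoint kinase, had 1690.4, 1491 and 1379 normalised reads against 1988, 2528 and 2818, a difference of 0.65 (SE 0.18, adjusted p = 0.315). Parp1, a sensor of DNA breaks, had 2068, 1809 and 1888 against 2469, 2683 and 3189.7, a difference of 0.51 (SE 0.17, adjusted p = 0.315). Msh6, of mismatch repair, differed by 0.47 (SE 0.16) and Fanca by 0.92 (SE 0.31). Each DKO library of Topbp1, Parp1 and Msh6 was above each SAMHD1 KO library.

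The cell cycle list showed how far the choice of SAMHD1 KO library matters. It had 36 of 42 members higher and a median of 0.35. Against SAMHD1 KO 1 all 42 were higher with a median of 2.08, and against SAMHD1 KO 2 and 3 27 of 42 were lower with a median of -0.47. The mean of log2(normalised reads + 1) was 5.68, 8.29 and 8.27 in SAMHD1 KO 1 to 3 and 7.48, 8.49 and 8.15 in DKO 1 to 3. The list members with the smallest p were Mcm2, Mcm5, Mcm4 and Mcm6, all subunits of the helicase that licenses replication origins. Mcm2 had 378, 417 and 515 against 644, 1064 and 1603, a difference of 1.16 (SE 0.28, adjusted p = 0.315). Mcm6 had 1380.3, 1267 and 1218 against 1599, 2623 and 3684, a difference of 0.92 (SE 0.25, adjusted p = 0.315). Mcm5 differed by 1.29 (SE 0.33) and Mcm4 by 0.79 (SE 0.20). Timeless, of the replication fork protection complex, had 44.9, 107 and 69.7 against 114, 439 and 405, a difference of 1.48 (SE 0.38, adjusted p = 0.315). Of the other listed MCM genes, given after their values were seen, Mcm3 differed by 0.60 (SE 0.21), Mcm7 by 0.77 (SE 0.30) and Mcm10 by 0.86 (SE 0.48), and the groups overlapped for Mcm7 and Mcm10. Ccnd1, the cyclin of entry into the cycle, had 2344, 2358 and 2532 against 5548, 9402 and 17835, a difference of 1.99 (SE 0.32, adjusted p = 0.269). WT 1 and 2 had 10499 and 4059 of Ccnd1. All SAMHD1 KO libraries lay below both of these, DKO 1 and 2 lay between them and DKO 3 lay above both.

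Sterol synthesis had 18 of 22 members higher and a median of 0.41, with 0.24 against SAMHD1 KO 1 and 0.67 against SAMHD1 KO 2 and 3. Sqle, squalene epoxidase, had 71.5, 2.3 and 12.2 normalised reads against 147, 76.7 and 295, a difference of 1.73 (SE 0.50, adjusted p = 0.315). The sterol carrier Stard4 differed by 0.93 (SE 0.29) and Hsd17b7 by 0.85 (SE 0.30). DKO 2 was the lowest DKO library for Sqle, and its value came near SAMHD1 KO 1. Of 15 genes of lipid synthesis and LXR targets, 9 were higher. The desaturase Scd2 differed by 1.39 (SE 0.46), Scd1 by 1.09 (SE 0.44) and fatty acid synthase Fasn by 1.23 (SE 0.45), while Nr1h3, which encodes LXR alpha, was lower by -0.63 (SE 0.20).

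**Figure D3:**
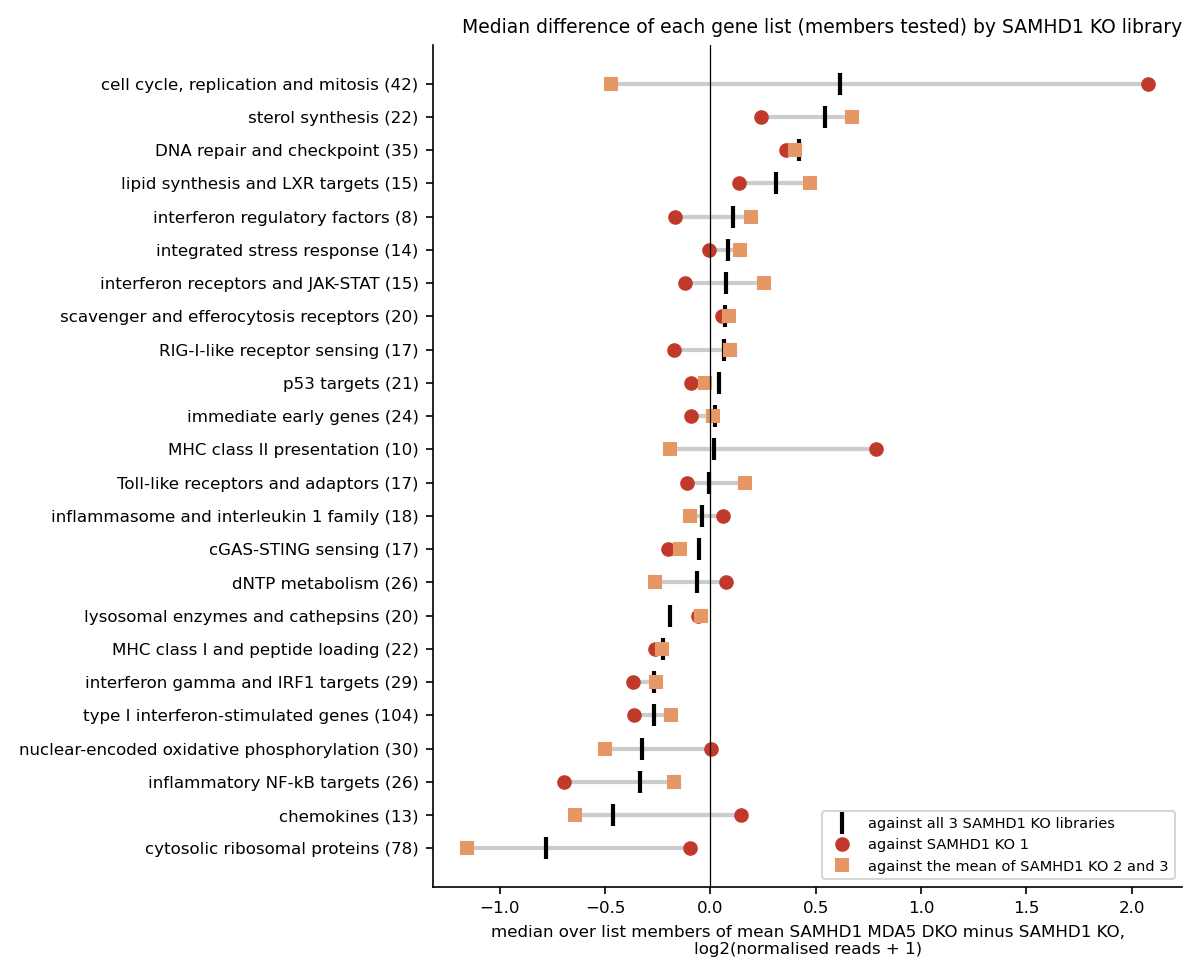
Median over the tested members of each gene list of the mean DKO minus SAMHD1 KO difference in log2(normalised reads + 1), read against all 3 SAMHD1 KO libraries (bar), SAMHD1 KO 1 (circle) and the mean of SAMHD1 KO 2 and 3 (square); numbers in brackets are members tested. The type I interferon list lies below 0 for all 3 readings, sterol synthesis and DNA repair lie above 0, and the cell cycle list spans from -0.47 to 2.08.

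Genes of ribosomes and of the respiratory chain were lower, and their values moved with SAMHD1 KO 2 and 3. All 78 tested cytosolic ribosomal protein genes were lower, with a median of -0.75. Against SAMHD1 KO 1 the median was -0.095, with 54 of 78 lower, and against SAMHD1 KO 2 and 3 it was -1.15. Their genes took 1.12% of reads in SAMHD1 KO 1, 2.51% and 2.35% in SAMHD1 KO 2 and 3, and 1.04% to 1.22% in the DKO libraries. Rps19 had 4175, 10088 and 8259.7 against 3335, 3322 and 3768, a difference of -1.02 (SE 0.27, adjusted p = 0.315). Rps10 differed by -1.05 (SE 0.28) and Rplp1 by -0.93 (SE 0.25). Many processed copies of ribosomal protein genes exist, and reads can be shared with them. Of the respiratory chain list 22 of 30 were lower with a median of -0.32, which was 0.0031 against SAMHD1 KO 1. Atp5c1, a subunit of ATP synthase, had 5012, 8432 and 8266 against 4187, 4214 and 4739, a difference of -0.69 (SE 0.22, adjusted p = 0.315). Cox7a2, Cox6c and Ndufa4 differed by -0.73 (SE 0.25), -0.78 (SE 0.27) and -0.70 (SE 0.24).

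The same split appeared over gene length. The rank correlation of the difference with gene length over the 14150 genes was 0.365, with points that share the same 6 libraries. It was 0.018 for the difference against SAMHD1 KO 1 and 0.383 for that against SAMHD1 KO 2 and 3. With the genes in 4 classes of length, the shortest, with a median of 974 bases, had a median difference of -0.21, and the longest, with a median of 7981 bases, had 0.15. With a smooth trend on length removed from each library, which was added after seeing the data, the type I interferon list kept a median of -0.24, DNA repair 0.25 and sterol synthesis 0.40. Ribosomal proteins had -0.64 and the respiratory chain -0.14. The part of RNA integrity or library preparation in this was not tested.

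**Figure D4:**
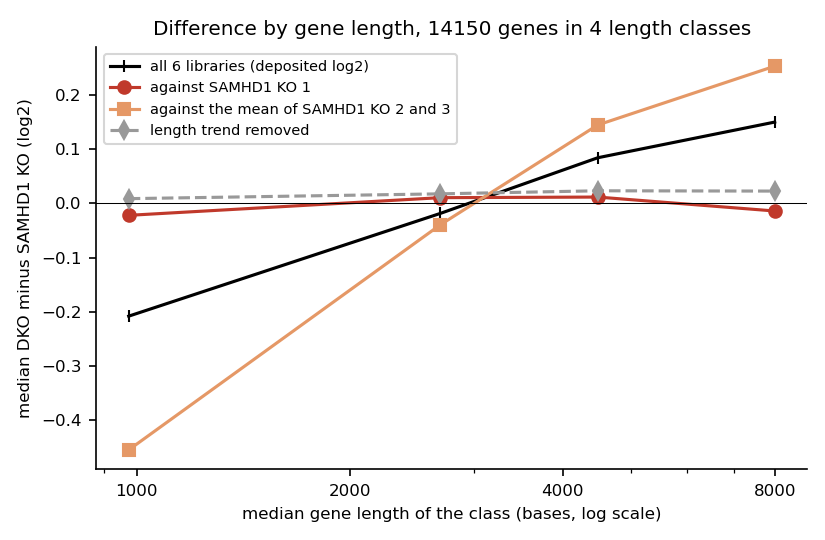
Median DKO minus SAMHD1 KO difference (log2) of 14150 genes in 4 classes by gene length, against the median length of the class in bases on a log axis. The line against SAMHD1 KO 1 runs between -0.022 and 0.012, while the line against SAMHD1 KO 2 and 3 runs from -0.46 to 0.25.

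The genes named for the largest higher differences were chosen as groups that do not overlap, and none passed the test. F13a1, coagulation factor XIII A, had 7196, 6752 and 6774 normalised reads in the SAMHD1 KO libraries and 16259.6, 54939.7 and 26451 in the DKO libraries, a difference of 2.04 (SE 0.40, adjusted p = 0.315). Retnla, a secreted marker of alternative activation, had 3494, 6571 and 6261 against 10546, 41753 and 17187, a difference of 1.89 (SE 0.49, adjusted p = 0.315). DKO 2 was the highest library for both. The carbonyl reductase Cbr2 had 969, 488 and 526 against 1622, 3863 and 1809, a difference of 1.74 (SE 0.33, adjusted p = 0.315). Gas6, a bridging molecule for the uptake of dying cells, had 43.2, 70.0 and 57.5 against 164, 527 and 109, a difference of 1.38 (SE 0.42, adjusted p = 0.315). Lyve1 differed by 0.98 (SE 0.30) and the scavenger receptor Stab1 by 0.96 (SE 0.29). Etv5, a transcription factor downstream of growth factor signalling, had 854, 473 and 545 against 1508, 1642 and 1999, a difference of 1.41 (SE 0.24, adjusted p = 0.314). The growth factor Pdgfb differed by 1.51 (SE 0.32) and the lectin Lgals1 by 1.41 (SE 0.25).

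In the other direction, Plac8, a gene of monocytes and other myeloid cells, had 293, 801 and 783 against 126, 163 and 24.4, a difference of -2.20 (SE 0.48, adjusted p = 0.315). Pdk4, an inhibitor of pyruvate dehydrogenase, had 2467, 2999 and 3174 against 2403, 1076 and 178, where DKO 1 stood at the SAMHD1 KO level and DKO 3 far below. Its difference was -1.77 (SE 0.56, adjusted p = 0.315). Apoc1, an apolipoprotein, had 2319.9, 7618 and 6632 against 2347, 1481 and 380.4, where DKO 1 was level with SAMHD1 KO 1. Its groups thus overlapped in normalised reads, although the adjusted log2 values by which it was named did not. The RNA 2410006H16Rik had 826, 4468 and 3802 against 775, 776 and 476, where SAMHD1 KO 1 was close to the DKO libraries. Lyz2, lysozyme, had 1457329.7, 4930207 and 4648020.0 against 1722389, 1501396 and 1751062, so that SAMHD1 KO 1 lay below all DKO libraries and SAMHD1 KO 2 and 3 far above, with a difference of -0.97 (SE 0.47). In the lysosomal list 13 of 20 members were lower, and in the scavenger receptor list 9 of 20. The lysosomal genes Npc2, Ctsh and Ctsc differed by -0.66 (SE 0.23), -0.57 (SE 0.28) and 0.43 (SE 0.22).

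The p53 targets held members in both directions, with 10 of 21 lower. Besides Fas, the death gene Pmaip1 was lower, with 479, 544 and 536 against 357, 213 and 266 and a difference of -0.82 (SE 0.21, adjusted p = 0.315). Plk3, a stress kinase, was higher, with 354, 236 and 238 against 518, 572 and 597 and a difference of 0.92 (SE 0.20, adjusted p = 0.315). Trp53inp1 differed by -0.70 (SE 0.24). In nucleotide metabolism, where SAMHD1 itself acts, 15 of 26 genes were lower, with Nme2 at -0.52 (SE 0.20), Guk1 at -0.86 (SE 0.34), Pnp at -0.45 (SE 0.18) and Umps at 0.40 (SE 0.16). Stress and immediate early genes had medians of 0.07 and 0.014. Myc had 1825, 578 and 587 against 1749.8, 2332 and 1553, where SAMHD1 KO 1 lay within the DKO libraries. In the stress list Nupr1 differed by -0.47 (SE 0.16), Shmt2 by 0.68 (SE 0.24), Ddit3 by -0.80 (SE 0.30) and Slc7a5 by 1.01 (SE 0.41). Among the immediate early genes Ier3 differed by -0.39 (SE 0.16), Atf3 by -0.33 (SE 0.17) and Dusp1 by 0.67 (SE 0.38).

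The labelled cell type was present in all libraries. The summed normalised reads of the markers of large peritoneal macrophages were 1450681 to 2127082 in the SAMHD1 KO libraries and 1627786 to 2276403 in the DKO libraries, and 9 of 19 tested markers were lower, with a median of 0.064. Gata6, their defining factor, named outside the rule after its values were seen, had 7661, 5248 and 5140.5 against 6829, 5436 and 7139. Those with the smallest p were Cd9, Lrp1, Naip1 and Timd4, at -0.47 (SE 0.25), 0.57 (SE 0.37), -0.31 (SE 0.22) and -0.33 (SE 0.24). In bulk RNA fewer cells of a type and less RNA per cell cannot be told apart. Of the markers of small peritoneal macrophages and monocytes 7 of 12 tested were higher. Their sum was 12678 to 18319 against 25234 to 62717, Retnla included. Without Retnla, left out after seeing the data, it was 9184 to 12059 against 14689, 20964 and 10142, and the groups overlapped.

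Summed markers of other cells were far below those of large peritoneal macrophages but not equal between the groups. Mast cell markers were lower in all 8 tested members, with a sum of 3025 to 3774 in the SAMHD1 KO libraries and 1524 to 2613 in the DKO libraries. Cpa3, a mast cell protease, had 34.9, 376 and 330.1 against 32.7, 0 and 41, and Cma1, a chymase, had 42.4, 442 and 428 against 53.6, 0 and 44.9. Tpsb2 and the receptor Kit differed by -1.51 (SE 0.49) and -1.20 (SE 0.33). SAMHD1 KO 1 lay with the DKO libraries for these genes, yet had the highest sum. Hdc, a member chosen after its values were seen, had 3583, 1811 and 1755 against 1831, 1508 and 2385 and carried most of the sum. Without it the sum was 191, 1515 and 1270.4 against 217, 15.9 and 228. Haemoglobin reads were present in every SAMHD1 KO library and nearly absent from DKO 1 and 2. Hba-a2 had 99.8, 106 and 85.6 against 0, 0.88 and 2.93, a difference of -2.17 (SE 0.19, adjusted p = 0.018), and fell, as the only gene besides Ifih1 that passed the test. Its call was lost without SAMHD1 KO 3 (adjusted p = 0.144), DKO 1 (0.119) or DKO 2 (0.123). Hbb-bs had 225, 215 and 155 against 0, 0 and 29.3, a difference of -2.70 (SE 0.29, adjusted p = 0.0691). Hba-a1 and Hbb-bt differed by -2.16 (SE 0.30) and -1.59 (SE 0.34), and near-identical copies can share reads. The sum of the erythroid markers was 381.5 to 585.4 against 2.79 to 84.9, and its part in the other differences was not tested. This sum was 12.1, 95.5 and 518 in WT 1 to 3 and 26.5, 30.0 and 102 in MDA5 KO 1 to 3, so it also varied widely within WT. B cell markers summed to 2779 to 3101 against 3117 to 3872, T cell markers to 146 to 210.05 against 208 to 417, and neutrophil markers to 14001 to 14910.3 against 13189.8 to 17876. Dendritic cell markers had 5 of 6 tested members lower and summed to 4646 to 4737 against 2817 to 5222. Eosinophil markers summed to 46.6 to 94.2 against 37.9 to 60.6, and platelet markers to 19711 to 42625 against 16742 to 35751. Only 2 of 7 platelet and 4 of 12 neutrophil markers passed the floor, so these sums rest on few genes. Which cells made this RNA was not tested. Markers of natural killer cells and of mesothelial cells and fibroblasts summed to at most 36.7 normalised reads in each of the 6 libraries.

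Genes beside Ifih1 on chromosome 2 were read because a deleted locus carries its flanking region with it. Of 74 genes within 5 Mb, 31 were tested and 16 were lower, with a median of -0.097. Gca (chr2:62664285-62694109), which encodes the calcium-binding protein grancalcin and lies close to Ifih1, had 1253, 1082 and 1078 normalised reads in the SAMHD1 KO libraries and 449, 336 and 449 in the DKO libraries, a difference of -1.37 (SE 0.18, adjusted p = 0.111). The MDA5 KO libraries had 585, 446 and 507 and WT had 1103, 1008 and 955. All 6 libraries without MDA5 were thus below all 6 with it. Fap (chr2:62500943-62574075), a surface protease, had 22.4, 48.2 and 37.9 against 0, 0 and 0, with 16.7, 4.11 and 17.6 in WT and 0.85, 45 and 0 in MDA5 KO, where MDA5 KO 2 differed from the other libraries without MDA5. Cd302, a lectin receptor, had 5347, 7689 and 7771 against 3274, 3816 and 2787, a difference of -1.06 (SE 0.22, adjusted p = 0.315), and Gm13573 differed by -0.68 (SE 0.26). Near Samhd1, 114 of 197 genes were tested and 54 were lower, with a median of 0.031. Those with the smallest p were Cep250 at 0.71 (SE 0.17), Gm14165 at -0.80 (SE 0.20), Epb41l1 at 0.75 (SE 0.22) and Rps15a-ps7 at -1.12 (SE 0.33). Whether a flanking region or MDA5 itself sets these levels cannot be told apart here.

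The loss of MDA5 with SAMHD1 present, MDA5 KO minus WT, shares no library with this comparison and served as its reference. The difference between both effects was tested in 12 libraries with limma and called 0 of 14239 genes. At an unadjusted p under 0.05 it held 317 genes, or 2.23%, and no adjusted p was under 0.996. Over the 14150 genes the DKO minus SAMHD1 KO difference and the MDA5 KO minus WT 1 and 2 difference had a Pearson correlation of 0.398 across genes. Of the 104 type I interferon genes 75 were lower in both, or 72.1%, against 33.9% of all genes, and the correlation across these 104 genes was 0.68. Their median was -0.27 with SAMHD1 missing and -0.41 with SAMHD1 present, against WT 1 and 2. With all 3 WT libraries 49 of the 104 were lower in both, against 4423 of the 14150 genes. The median with SAMHD1 present was then -0.027, and WT 3 was low in this list. The median of the difference of both effects, from the fit of all 12 libraries, was -0.00085, which is not the difference of these medians. Usp18 had 240.3, 98.7 and 249 normalised reads in MDA5 KO against 487 and 452 in WT 1 and 2, and Isg15 had 94.1, 30.0 and 175 against 269 and 204. Both genes were thus lower without MDA5 on either background.

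NF-kB genes had other values on the 2 backgrounds. They had a median of -0.33 with SAMHD1 missing, where SAMHD1 KO 1 and SAMHD1 KO 2 and 3 gave the unequal values above. With SAMHD1 present it was 0.29 against WT 1 and 2 and 0.52 against all 3 WT libraries. Of the 26 members, 4 were lower in both, read against WT 1 and 2, beside 33.9% of all genes. In the fit of all 12 libraries the difference of both effects had a median of -0.95 over 27 members. At an unadjusted p under 0.05 in this limma fit there were 8 of them, beside 2.23% of all genes. None passed the adjusted threshold. Cxcl2 had 575, 205 and 800.0 normalised reads in MDA5 KO against 313 and 254 in WT 1 and 2, so the MDA5 KO libraries spread across the WT level. The difference of both effects was -1.72 (SE 0.70) for Cxcl2 and -2.58 (SE 0.93) for Saa3. Ribosomal proteins were lower in both for 76 of 78 genes and the respiratory chain for 22 of 30, beside the same 33.9%. Higher in both, read against WT 1 and 2, were 24 of 35 DNA repair genes, 38 of 42 cell cycle genes and 11 of 22 sterol genes. That compares with 37.5% of all genes. Lower in both were 3, 1 and 4 members of these lists.

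**Figure D5:**
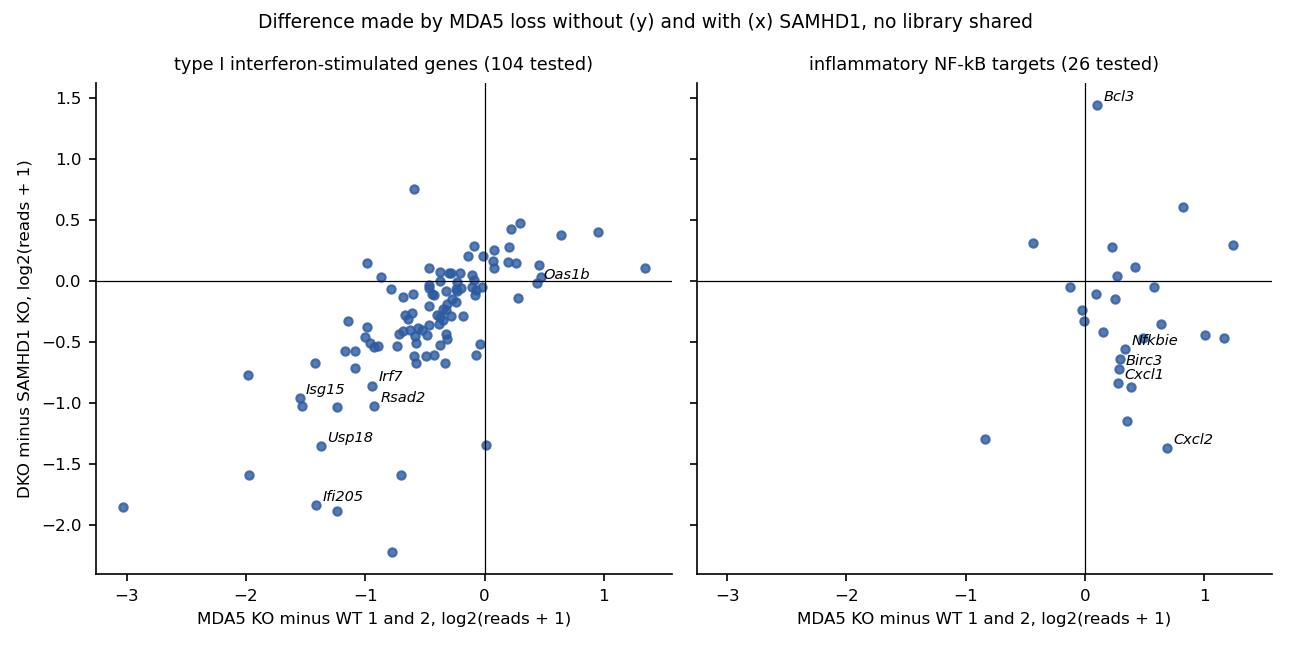
Each point is a tested gene of the type I interferon list (left) or the NF-kB list (right); the x axis is MDA5 KO minus the mean of WT 1 and 2 and the y axis DKO minus SAMHD1 KO, both in log2(normalised reads + 1). In the left panel 75 of 104 genes lie below 0 on both axes, and in the right panel 4 of 26 do.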

How the data were processed

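RNA of untreated mouse peritoneal macrophages was sequenced in 12 libraries, 3 for each of 4 genotypes, and this comparison used the 6 without SAMHD1. The submitters' processing notes name STAR, Salmon, R 4.1.2 and DESeq2 with builds GRCm38 and mm10, and the labels' extraction protocol names other tools, so which made the tables is not settled here. The authors deposited a table per pair of genotypes with log2 library values (a variance-stabilised scale with a floor), a mean signal per gene in scaled reads, a log2 fold change, a test score, and p-values per gene. Genes of chromosomes X and Y and of the mitochondrion were not analysed here.

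Whole reads were recovered from the deposited log2 values (tolerance 0.05 reads) and divided by size factors. Genes with a deposited mean of at least 10 were fitted with limma 3.58.1 in R 4.3.3 on the deposited log2 values, with genotype and the adjusted set as terms, a mean trend and robust moderation, 3 residual degrees of freedom, and Benjamini-Hochberg adjustment at 0.05. Other levels and differences used a pseudocount of 1. The scripts were tested on simulated data. The effect of MDA5 loss with SAMHD1 present was compared in an interaction fit of the 12 libraries.

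The members, the 39 gene lists and the tests were chosen with earlier results of these data known. Named genes were Samhd1, Ifih1, every gene called, the 4 members of each list with the smallest p, the first 12 of the type I interferon list, and the 10 lower and 10 higher genes with the largest difference among those with a mean of at least 100, groups that do not overlap and 1 sign inside and outside the adjusted set. Other names are said to be chosen after their values were seen. Some genes that this rule names are not reported here. Promoters came from RefSeq (GRCm38.p6). Alternatives were other filters on low values, other terms and moderation, the fit on reads with pseudocounts of 1 and 10, each library left out, and, added after seeing the data, SAMHD1 KO 2 and 3 as 1 library, SAMHD1 KO 1 alone and a length trend removed.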

Additional observations from a re-analysis of the deposited data

How the results depend on the processing

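The count of 2 called genes in the comparison of SAMHD1 MDA5 DKO with SAMHD1 KO became 363 with no filter on the deposited mean (89 higher, 274 lower), 1 with a mean of at least 50, 6 with no term for the adjusted set (1 higher, 5 lower) and 4 outside that set. It was 0 with SAMHD1 KO 2 and 3 counted as 1 library, 0 with SAMHD1 KO 1 alone, 1 with the length trend removed and 1 in the fit of reads of the 6 libraries. Leaving out 1 library gave 1 to 4197 calls, the highest without SAMHD1 KO 1. With the set term, leaving out SAMHD1 KO 2 or DKO 3 also removes the weight of the other, so these give the values found outside the set. The replicate block gave 327 calls (84 higher, 243 lower) with 1 residual degree of freedom. Same-numbered libraries correlated at 0.012, 0.057 and -0.013 in their deviations, and differently numbered ones at -0.063 to 0.045. The labels give no pairing beyond the number, and these values cannot settle whether the libraries were paired. The cause of these shifts was not tested.

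Ifih1 kept its direction in all alternatives, with an adjusted p of 0.495 with SAMHD1 KO 2 and 3 as 1 library and 0.312 against SAMHD1 KO 1 alone. The interaction called 0 genes in every alternative. The median of the type I interferon list ranged from -0.45 inside to -0.15 outside the adjusted set. Of 34 list medians, 19 kept their sign against SAMHD1 KO 1 alone and 26 outside the adjusted set. Inside the adjusted set 88 of 160 named genes moved by more than the spread between replicates.

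Reversed values of named genes were 0.28 for Samhd1 and 0.13 for Itgae outside the adjusted set. Against SAMHD1 KO 1 alone they were 0.029 for Guk1, 0.0042 for Il18, 0.18 for Lyz2, 0.087 for Ctsh, 0.078 for Cd9, -0.19 for Lrp1, 0.77 for Ear2, 0.40 for Pf4 and 0.23 for Ifit3b. Oas1b was -0.012 in the fits of reads with pseudocount 1 (6 libraries, and 12 with or without the set term) and -0.0039 with SAMHD1 KO 2 and 3 as 1 library. With 1 library left out, Samhd1 ranged from -0.37 to 0.28, Cd74 from -0.040 to 0.84, Itgae from -0.42 to 0.13, Csf3r from -0.010 to 0.23, Elane from -0.15 to 0.52, Ifit1bl2 from -0.044 to 0.12 and Oas1b from -0.27 to 0.60. Genes of low level are limited by the floor of the deposited scale.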
